A study of Mus musculus with 8 samples.

Results

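Cells respond to a shortage of amino acids, to unfolded proteins in the endoplasmic reticulum (ER) and to other stresses by phosphorylating the translation initiation factor eIF2. General protein synthesis then slows, while the mRNA of the transcription factor ATF4 is translated more, and ATF4 with its partners, among them CHOP (the product of *Ddit3*), activates genes for amino-acid supply, for feedback on eIF2 and for cell death. The C/EBP-ATF response element, a short DNA motif read by a dimer of ATF4 with a C/EBP protein, marks many of its target genes.

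The 10 genes described here stand for this response: *Atf4*, *Atf5*, *Atf3*, *Ddit3* and *Nupr1* for its transcription regulators, and *Chac1*, *Trib3*, *Asns*, *Vldlr* and *Ppp1r15a* for its targets and feedback. They were found by their GENCODE M21 symbols and make up 11 of the 54838 gene rows counted in the series, because *Ddit3* has 2 identifiers. The group was chosen by known membership of the pathway and by the measured log2 fold changes of IOX5 over DMSO, which were already in view, so the differences between treatments given for these 10 genes are a description without a test. All 10 symbols passed the filter on low counts and were among the 12405 genes tested.

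RNA-seq was performed on *iMLL-AF9* cells, mouse leukemic cells with a doxycycline-inducible *MLL-AF9* allele on a C57BL/6 background. The labels give bone marrow as the tissue, leukaemic stem cells as the cell type and WT as the genotype of all 8 samples. Samples of the one group received the vehicle DMSO and those of the other IOX5, an inhibitor of the prolyl hydroxylase PHD2 (4 samples each, numbered 1 to 4). The dose and the duration of treatment are not stated for these samples, and nothing says whether replicates came from separate animals or cultures, so p-values measure only the spread between these samples. In bulk RNA, fewer cells of a type and less RNA per cell cannot be told apart.

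The DMSO libraries held 12343770 to 14116054 reads on genes and the IOX5 libraries 11351507 to 12708888. All values below are CPM, read counts per library size after TMM scaling, a factor that corrects for library composition, and carry SDs over 4 samples per group unless another error is named. Samples with the same replicate number deviated together from their group means, with correlations of 0.636 to 0.758, so differences are also given within each number. DMSO sample 4 correlated more with IOX5 sample 3 (0.685) than with IOX5 sample 4 (0.636). These correlations therefore do not set numbers 3 and 4 clearly apart as pairs. Of 9 progenitor and leukemia markers (*Kit*, *Cd34*, *Hoxa9*, *Hoxa10*, *Meis1*, *Myb*, *Ptprc*, *Itgam* and *Mpo*), all were tested and summed to between 2377 and 4754 CPM in DMSO samples and between 2761 and 5530 in IOX5 samples, whereas *Ms4a1* of lymphocytes was at 0. The largest part of these sums was *Mpo*, with 2195 ± 1209 CPM with DMSO and 2626 ± 1480 with IOX5. All 9 were called for the replicate number in the test given below. All 12 tested HIF target genes had higher expression with IOX5 (median log2 fold change 0.54), and 8 of them were called. Examples are *Pdk1*, the kinase that inhibits pyruvate dehydrogenase (168.1 ± 17.5 to 267.2 ± 7.02 CPM, adjusted p = 0.0157), *Ankrd37* (6.05 ± 0.806 to 15.8 ± 1.98 CPM, adjusted p = 0.0143) and the histone demethylase *Kdm3a* (89.3 ± 6.15 to 130.8 ± 9.09 CPM, adjusted p = 0.0197; all by edgeR's quasi-likelihood test with Benjamini-Hochberg adjustment). *Ldha* (adjusted p = 0.0410) and *Pgk1* (adjusted p = 0.0254), the list's most abundant genes per length, rose too by edgeR.

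The motif of ATF4 was looked for in the promoters of the 10 genes, because the expression values did not select it. Known membership of the ATF4 pathway did help to choose these genes, and the motif marks many ATF4 targets. Its share among the 10 is therefore not independent of their choice. The windows are the 250 bases before each annotated start in RefSeq, on GRCm38, with 1 window for 8 of the genes and 2 each for *Atf5* and *Vldlr*, and all shares given below are over windows of this length. The motif was searched as TGATGNAA on both strands. It was found once in each of 5 genes, *Chac1*, *Asns*, *Atf3*, *Nupr1* and *Vldlr*. Among all tested genes with such a window, 229 of 9320 (2.46%) held it, and among all RefSeq windows of this length 1134 of 32851 (3.45%). The 5 matches are shown within 30 bases each, 5′ to 3′ along the gene, with the match in capitals, because they are where the sequence of these promoters is alike.
*Chac1*, chr2:119351038-119351067, plus strand, between annotated genes in GENCODE M21: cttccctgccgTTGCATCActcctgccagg
*Atf3*, chr1:191183425-191183454, minus strand, in an intron of *Atf3*: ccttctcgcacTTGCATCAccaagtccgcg
*Nupr1*, chr7:126625562-126625591, minus strand, in an exon of *Nupr1*: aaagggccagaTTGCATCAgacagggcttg
*Vldlr*, chr19:27216809-27216838, plus strand, in an exon of *Vldlr*: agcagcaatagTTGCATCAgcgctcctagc
*Asns*, chr6:7693214-7693243, minus strand, in an exon of *Asns*: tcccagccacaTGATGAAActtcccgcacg

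In *Chac1*, *Atf3*, *Nupr1* and *Vldlr* the match is the same TTGCATCA, which is the motif read on the other strand, and in *Asns* it is TGATGAAA in the direction of the gene. The match began 193 bases before the start of *Chac1*, 110 before those of *Atf3* and *Nupr1*, 200 before the second start of *Vldlr* and 23 before that of *Asns*. *Chac1* is the gene with the lowest fold change among the 10, and 200 bases of its upstream sequence, beginning 250 bases before the start, are shown for context with the match in capitals.
*Chac1*, chr2:119350992-119351191, plus strand, between annotated genes: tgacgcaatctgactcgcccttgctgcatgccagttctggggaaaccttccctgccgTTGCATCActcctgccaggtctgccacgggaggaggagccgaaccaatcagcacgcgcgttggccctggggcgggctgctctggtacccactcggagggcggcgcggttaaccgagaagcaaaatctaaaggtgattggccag

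The cAMP response element, searched as TGACGTCA, was found in *Ppp1r15a* alone among the 10, from 12 to 5 bases before its start, and in 2.57% of the windows of tested genes. The ER stress response element was found in none of them and in 0.118% of the windows of tested genes. The core of the hypoxia response element was searched as ACGTG and as GCGTG, which are found in 22.1% and 44.7% of those windows. ACGTG was found in *Asns*, *Nupr1* and *Ppp1r15a*, and GCGTG in *Atf4*, *Atf3*, *Ddit3*, *Chac1*, *Trib3*, *Asns* and *Ppp1r15a*. No match to the C/EBP-ATF response element overlapped a match to another motif. These letters say nothing of whether a factor was bound there.

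**Figure D1:**
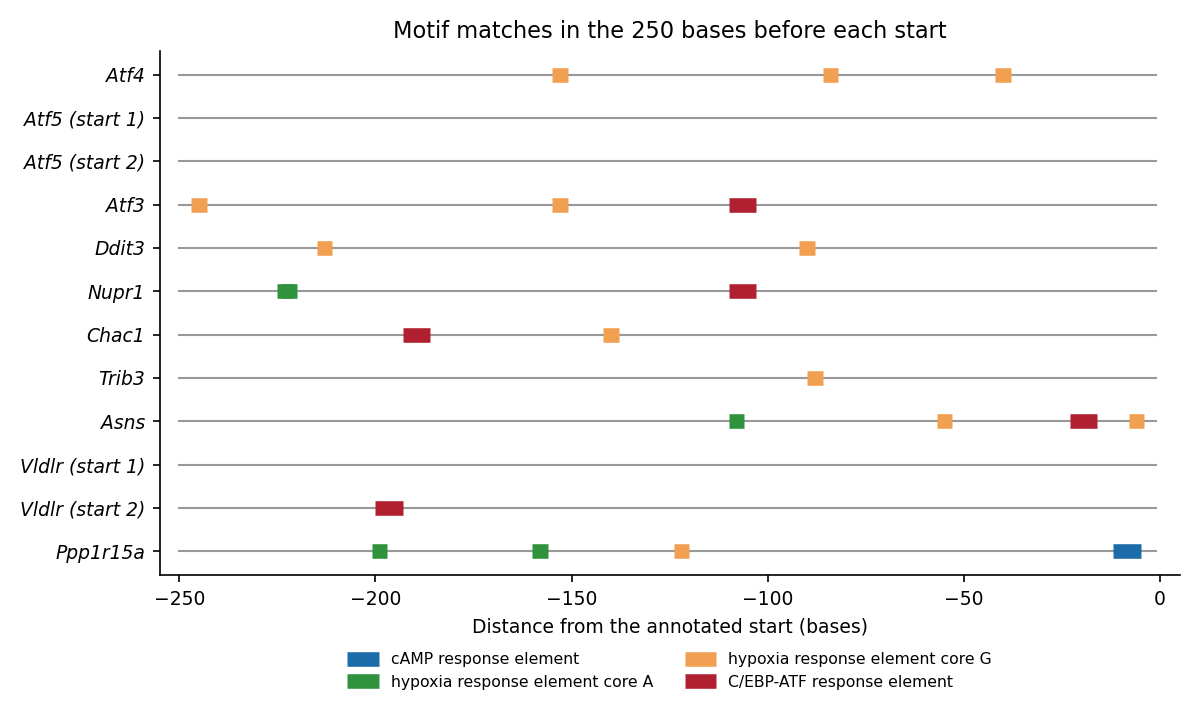
Motif matches in the promoter windows of the 10 genes. The horizontal axis is the distance in bases from the annotated start and each grey line is 1 window of 250 bases, with coloured blocks for the matches. C/EBP-ATF response elements lie in 5 genes, at distances from 200 bases (*Vldlr*) to 23 bases (*Asns*) before the start, and the *Atf5* windows hold no match to any motif searched.

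The starting levels of these genes covered a wide range. Levels of different genes are compared here as CPM per kilobase of exon, since longer genes yield more reads. In DMSO samples *Atf4* was highest at 224 ± 9.15 CPM per kilobase, above 98.7% of all genes tested. *Asns* followed at 77.1 ± 2.40, then *Atf5* at 30.6 ± 9.10 and *Trib3* at 22.2 ± 2.38, whose ranges over the 4 samples overlapped. *Chac1* had 10.5 ± 1.60 CPM per kilobase. *Ddit3* (6.87 ± 0.877) and *Nupr1* (6.63 ± 0.751) overlapped each other, and so did *Ppp1r15a* (4.18 ± 0.189) and *Atf3* (2.82 ± 0.948). *Vldlr* was lowest at 0.459 ± 0.258 CPM per kilobase, above 7.16% of all genes tested. The other neighbours in this order did not overlap in the DMSO samples.

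With IOX5, 6 of the 10 genes had a log2 fold change below 0 and 4 above 0, and their median was -0.14, against 0.02 over all genes tested. The groups did not overlap for *Chac1*, *Trib3* and *Asns*, which were lower with IOX5, and for *Ppp1r15a*, which was higher. Over all genes, 8.3% had groups that did not overlap with IOX5 lower and 5.98% with IOX5 higher. The test without a term for the replicate number called 1.25% of all genes lower and 0.774% higher at an adjusted p under 0.05 (edgeR), and among the 10 it called *Chac1* and *Trib3* lower and none higher. With the replicate number as a block it called 9.43% of all genes lower and 11.2% higher, and among the 10 *Chac1*, *Trib3*, *Asns* and *Atf4* lower and none higher. Since the 10 genes were chosen with this comparison in view, nothing is read from these counts.

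**Figure D2:**
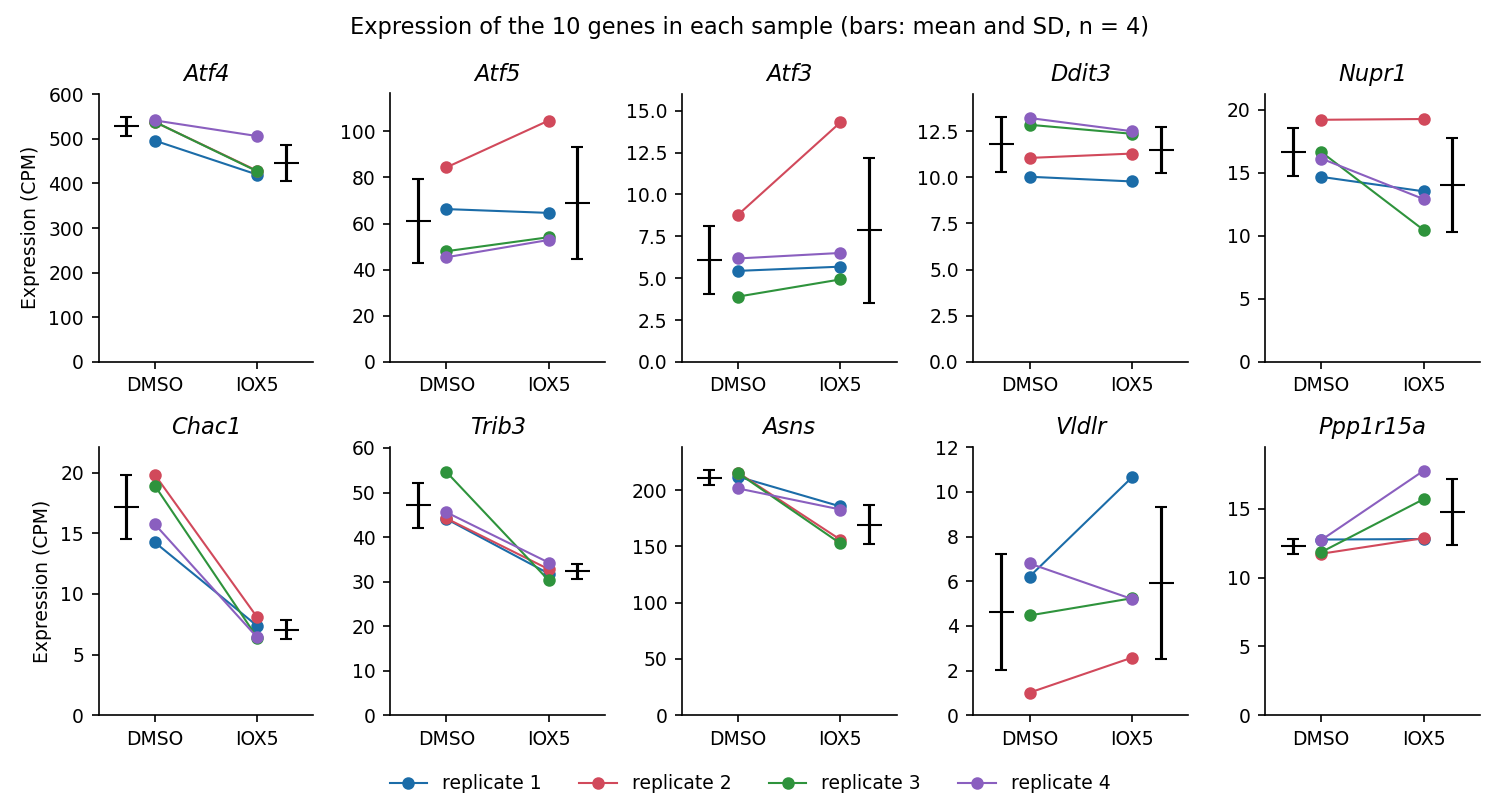
Expression of each of the 10 genes in CPM (vertical axes, starting at 0) in the 4 DMSO and the 4 IOX5 samples. Lines join samples with the same replicate number, and black bars give the mean and SD of each group (n = 4). All 4 IOX5 samples lie below all 4 DMSO samples for *Chac1*, *Trib3* and *Asns*, whereas *Atf5*, *Atf3* and *Vldlr* are spread mainly by replicate number.

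*Atf4* (ENSMUSG00000042406, chr15:80255184-80257541, plus strand) encodes the central transcription factor of the response, whose activity is set chiefly by translation of its mRNA. Its mRNA measured 495.9, 537.6, 537.9 and 541.3 CPM in DMSO samples 1 to 4 and 419.8, 428.3, 427.2 and 506.1 CPM in IOX5 samples 1 to 4. Only IOX5 sample 4 reached into the range of the DMSO samples, above DMSO sample 1. The mean with IOX5 was 445.4 ± 40.7 CPM against 528.2 ± 21.6 with DMSO, or 84.3% of it (log2 fold change -0.25, SE 0.073). Within the replicate numbers the log2 differences were -0.24, -0.33, -0.33 and -0.10, so *Atf4* was lower in each. The *Atf4* protein was not measured in these files.

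*Atf5* (ENSMUSG00000038539, chr7:44812256-44816658, minus strand) encodes a relative of ATF4 that is controlled by translation in the same way. Its levels were 66.3, 84.4, 48.0 and 45.4 CPM in DMSO samples 1 to 4 and 64.6, 104.7, 54.1 and 52.9 CPM in IOX5 samples 1 to 4. The groups overlapped widely, and sample 2 was highest in both. The means were 61.0 ± 18.1 CPM with DMSO and 69.1 ± 24.3 with IOX5 (log2 fold change 0.18, SE 0.264), and the sign turned (-0.093) without IOX5 sample 2. *Atf5* shares 82 exon bases with each of *Nup62* and *Il4i1* on the opposite strand, and the strand setting of the counting is not stated.

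*Atf3* (ENSMUSG00000026628, chr1:191170296-191218039, minus strand) encodes a factor of the same bZIP class that is induced by many stresses. It was measured at 5.44, 8.79, 3.90 and 6.18 CPM in DMSO samples 1 to 4 and at 5.69, 14.3, 4.92 and 6.50 CPM in IOX5 samples 1 to 4. Sample 2 was again highest in both groups, which overlapped. The means were 6.08 ± 2.04 and 7.85 ± 4.34 CPM (log2 fold change 0.37, SE 0.375). *Atf3* was higher with IOX5 within each number, by 0.063, 0.69, 0.32 and 0.073 on the log2 scale, but without IOX5 sample 2 the fold change of the group means was -0.092. Its counts were low, between 48 and 161 reads a sample.

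*Ddit3* (ENSMUSG00000025408, chr10:127290774-127296288, plus strand) encodes CHOP, the factor linked to cell death in prolonged ER stress. It had 10.02, 11.04, 12.8 and 13.2 CPM in DMSO samples 1 to 4 and 9.77, 11.3, 12.3 and 12.5 CPM in IOX5 samples 1 to 4. Each IOX5 sample lay close to the DMSO sample of its own number, and the groups overlapped almost fully. The means of 11.8 ± 1.502 and 11.5 ± 1.26 CPM gave a log2 fold change of -0.037 with an SE of 0.136, and leaving out 1 sample gave -0.11 to 0.037. The other *Ddit3* identifier (ENSMUSG00000116429, chr10:127290829-127293753) had 0 reads in all 8 samples, but its 105 exon bases all lie within exons of the first on the same strand, so its count says nothing of its expression. *Ddit3* also shares 68 exon bases with *Mars* on the opposite strand, a gene with 15212 reads in the 8 samples against 1164 for *Ddit3*.

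*Nupr1* (ENSMUSG00000030717, chr7:126623249-126630861, minus strand) encodes a small nuclear protein induced by stress. Its levels were 14.7, 19.2, 16.7 and 16.1 CPM in DMSO samples 1 to 4 and 13.5, 19.3, 10.5 and 12.9 CPM in IOX5 samples 1 to 4. IOX5 samples 1, 3 and 4 lay below all DMSO samples, whereas IOX5 sample 2 was the highest of all 8. The means were 16.7 ± 1.89 and 14.1 ± 3.72 CPM (log2 fold change -0.25, SE 0.184), and the fold change was -0.44 without IOX5 sample 2 and -0.13 without IOX5 sample 3. Within the numbers *Nupr1* differed by -0.12, 0.0045, -0.66 and -0.32 on the log2 scale.

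*Chac1* (ENSMUSG00000027313, chr2:119351229-119354381, plus strand) encodes a cytosolic enzyme that breaks down glutathione and is induced through ATF4. It was measured at 14.3, 19.8, 18.9 and 15.8 CPM in DMSO samples 1 to 4 and at 7.37, 8.08, 6.41 and 6.42 CPM in IOX5 samples 1 to 4. Every IOX5 sample was below every DMSO sample, with the highest IOX5 sample at 8.08 CPM and the lowest DMSO sample at 14.3 CPM. The mean with IOX5 was 7.07 ± 0.811 CPM, which is 41.1% of the 17.2 ± 2.63 CPM with DMSO (log2 fold change -1.28, SE 0.147). Only 5 of the 12405 genes tested had a lower fold change. Within the numbers *Chac1* was lower by a log2 difference of -0.94, -1.28, -1.54 and -1.27. Between 202 and 255 reads were counted in a DMSO sample and between 74 and 92 in an IOX5 sample. Leaving out any 1 sample kept the log2 fold change of *Chac1* between -1.36 and -1.21.

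*Trib3* (ENSMUSG00000032715, chr2:152337422-152344032, minus strand) encodes a pseudokinase that is induced by ATF4 and CHOP and restrains them in turn. It had 44.0, 44.2, 54.6 and 45.6 CPM in DMSO samples 1 to 4 and 31.8, 32.8, 30.2 and 34.3 CPM in IOX5 samples 1 to 4. All IOX5 samples were below all DMSO samples, and DMSO sample 3 stood above the rest of its group. The mean with IOX5 was 32.3 ± 1.68 CPM against 47.1 ± 5.05 with DMSO, or 68.5% of it (log2 fold change -0.55, SE 0.088). *Trib3* differed by -0.47, -0.43, -0.85 and -0.41 on the log2 scale within numbers 1 to 4.

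*Asns* (ENSMUSG00000029752, chr6:7675169-7693254, minus strand) encodes asparagine synthetase and is a standard target of ATF4 when amino acids are short. It measured 211.9, 215.4, 215.1 and 201.4 CPM in DMSO samples 1 to 4 and 185.5, 155.9, 152.6 and 182.7 CPM in IOX5 samples 1 to 4. The groups did not overlap, and IOX5 samples 1 and 4 were nearer to the DMSO samples than 2 and 3 were. The mean with IOX5 was 169.2 ± 17.3 CPM, which is 80.2% of the 211.0 ± 6.56 CPM with DMSO (log2 fold change -0.32, SE 0.077). Within the numbers *Asns* differed by -0.19, -0.47, -0.50 and -0.14 on the log2 scale.

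*Vldlr* (ENSMUSG00000024924, chr19:27216484-27254231, plus strand) encodes a lipoprotein receptor that has been linked both to ATF4 and to hypoxia. It was measured at 6.21, 1.01, 4.47 and 6.79 CPM in DMSO samples 1 to 4 and at 10.7, 2.58, 5.24 and 5.20 CPM in IOX5 samples 1 to 4. Sample 2 was lowest in both groups, and the groups overlapped. The means were 4.62 ± 2.60 and 5.92 ± 3.39 CPM (log2 fold change 0.36, SE 0.561), and the sign turned (-0.090) without IOX5 sample 1. Within the numbers *Vldlr* was higher by 0.76, 1.22 and 0.22 in numbers 1 to 3 and lower by a log2 difference of -0.37 in number 4. DMSO sample 2 had 13 reads, so this value carries a large counting error.

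*Ppp1r15a* (ENSMUSG00000040435, chr7:45522916-45526268, minus strand) encodes GADD34, the subunit that directs a phosphatase to eIF2 and so ends the response. It had 12.8, 11.7, 11.9 and 12.7 CPM in DMSO samples 1 to 4 and 12.8, 12.9, 15.7 and 17.8 CPM in IOX5 samples 1 to 4. IOX5 sample 1 was barely above the highest DMSO sample, so the groups were separate by a very small margin. The means were 12.3 ± 0.554 and 14.8 ± 2.40 CPM (log2 fold change 0.27, SE 0.131, and 0.17 without IOX5 sample 4), with log2 differences of 0.0042, 0.13, 0.40 and 0.48 within the numbers.

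**Figure D3:**
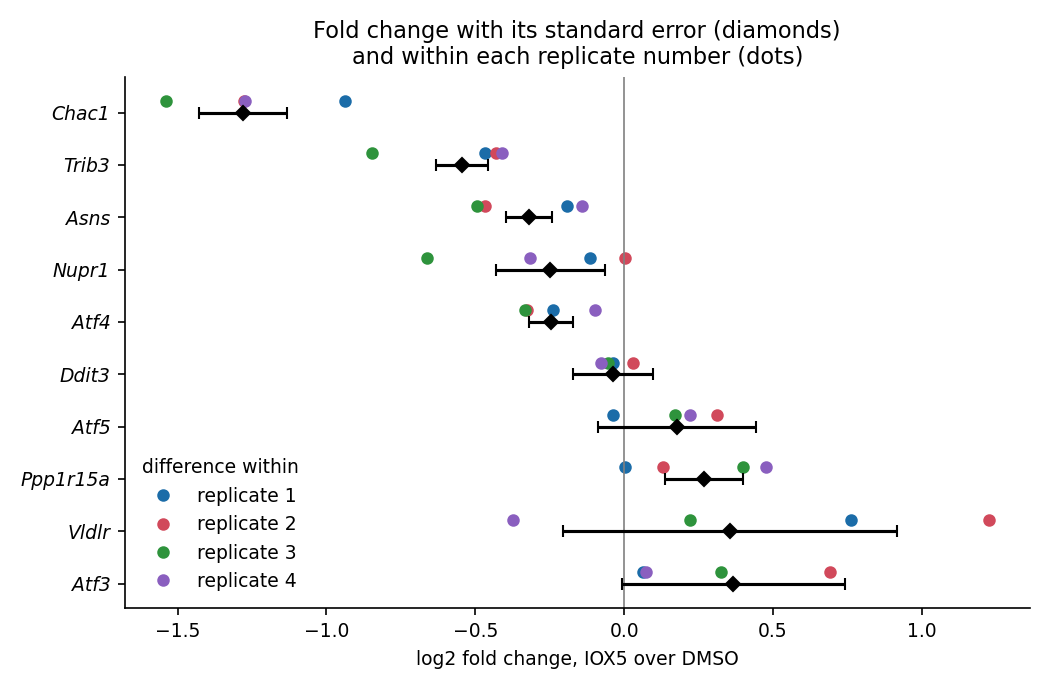
Log2 fold change of IOX5 over DMSO for the 10 genes (horizontal axis), ordered from lowest to highest. Black diamonds and bars are the fold change and its SE from the fit over all genes (n = 4 per group), and coloured dots are the differences within replicate numbers 1 to 4. *Chac1* lies apart at -1.28, *Trib3*, *Asns* and *Atf4* lie below 0 in every number, and the dots of *Vldlr* fall on both sides of 0.

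Within the replicate numbers, *Chac1*, *Trib3*, *Asns* and *Atf4* were lower with IOX5 in all 4, as were 19.8% of all genes tested. *Atf3* and *Ppp1r15a* were higher in all 4, as were 21.3% of all genes. Levels were also set against that of *Atf4* in the same sample. Per kilobase, *Chac1* stood at 4.14% to 5.31% of the level of *Atf4* in the DMSO samples and at 1.83% to 2.72% in the IOX5 samples, without overlap. *Trib3* stood at 9.12% to 11.3% of *Atf4* with DMSO and at 7.51% to 8.49% with IOX5, also without overlap. For *Asns* the ranges of this ratio, 32.1% to 36.8% and 30.8% to 38.1%, overlapped.

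The genes were next searched for patterns like that of *Chac1*. Likeness was measured over the 8 samples as the root mean square difference in log2 CPM after subtracting each gene's DMSO mean, among 12045 genes with a mean of at least 1 CPM. The closest was *Zfp112*, a zinc finger gene, at 0.195, with 2.04 ± 0.160 CPM with DMSO and 0.876 ± 0.205 with IOX5. *Entpd3* (0.346), *Hivep2* (0.354), *Gm43143* (0.384) and *Sowahc* (0.389) followed. None of these belongs to the lists of pathway genes used here. Of the other 9 genes described, *Trib3* came nearest at rank 62 (0.534), followed by *Asns* at rank 506, *Nupr1* at 756 and *Atf4* at 1055. *Atf3* and *Vldlr* were at ranks 10315 and 11676. Since only the DMSO mean was subtracted, this measure includes the difference between treatments, which helped to choose these 9 genes. Their order largely follows their log2 fold changes, so it is no separate evidence of a shared pattern, and nothing is read from it.

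Variation between the replicate numbers that DMSO and IOX5 samples share is independent of the treatment difference by which the genes were chosen, so it was tested for them. The F test of edgeR beside treatment called 22.5% of all genes for the replicate number, and 3 of the 10 (30%). These were *Atf5* (adjusted p = 2.69e-05), *Atf3* (adjusted p = 0.000947) and *Vldlr* (adjusted p = 0.00118). From the highest to the lowest number, *Atf5* ranged over 0.94 on the log2 CPM scale, from number 2 down to number 4. *Atf3* ranged over 1.32, from number 2 down to number 3, and *Vldlr* over 2.21, from number 1 down to number 2. For *Atf3* the call was lost when number 2 was left out. *Chac1* (adjusted p = 0.376), *Trib3* (0.800), *Asns* (0.730), *Atf4* (0.421), *Ddit3* (0.217), *Ppp1r15a* (0.487) and *Nupr1* (0.0943) were not called for the replicate number by edgeR. The median range over the numbers was 0.35 among the 10 genes and 0.31 among all genes tested. What the numbers stand for is not given.

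**Figure D4:**
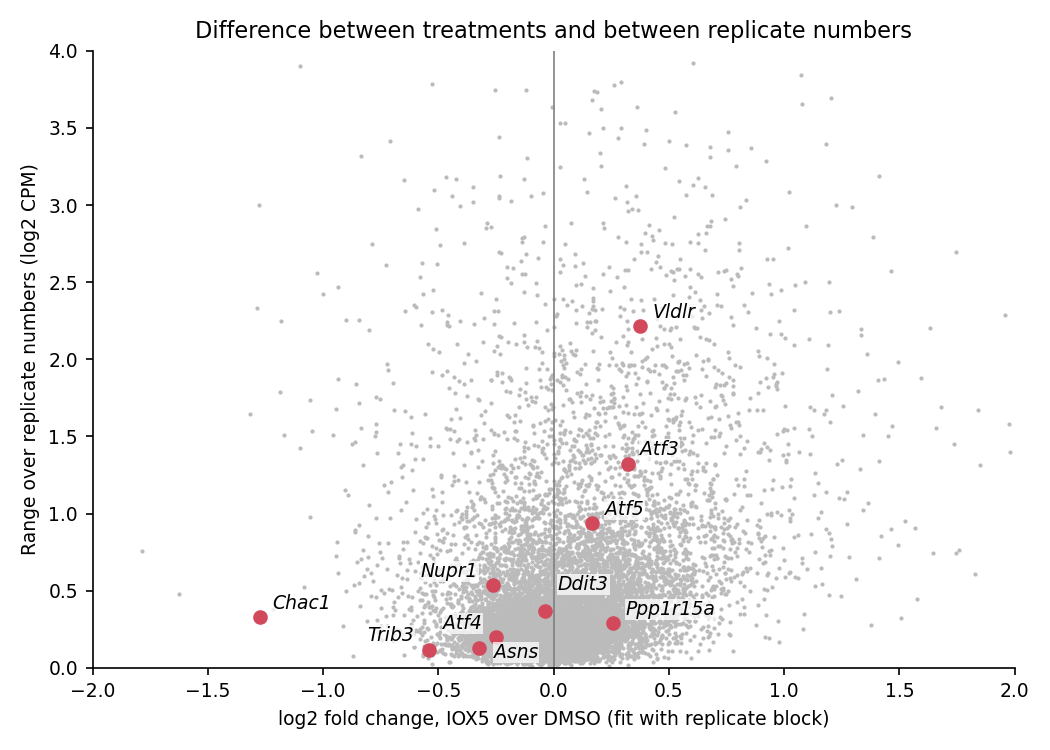
Difference between treatments against difference between replicate numbers. The horizontal axis is the log2 fold change of IOX5 over DMSO in the fit with the replicate block, the vertical axis is the range of log2 CPM over the 4 replicate numbers, each grey dot is a gene tested, and 41 genes lie outside the axes. *Chac1* sits far to the left at a range of 0.33, close to the median of all genes (0.31), and *Vldlr*, *Atf3* and *Atf5* sit high, at ranges of 2.21, 1.32 and 0.94.

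The other genes of the response were followed through lists written from textbook knowledge, with the 10 genes left out. The lists, those of HIF targets and cell types included, were chosen with earlier results of these data known. Their counts, medians and p-values are therefore not a blind test of the lists. In 3 lists of ATF4 targets, for amino-acid transport, amino-acid and one-carbon synthesis and tRNA charging, the tested genes were mostly lower with IOX5. Of 8 amino-acid transporters 6 were below 0 on the log2 scale (median -0.24), of 12 enzymes of amino-acid and one-carbon synthesis 11 (median -0.36), and of 13 genes of tRNA charging all (median -0.27). Among all genes tested 47.2% were below 0. The test without the block called 2, 2 and 1 of them lower and none higher, and the test with the block called 4, 8 and 11 lower and none higher. Of all genes the respective shares called lower were 1.25% and 9.43%.

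Among the transporters, *Slc7a5*, the light chain of the large neutral amino-acid carrier, fell from 493.6 ± 72.9 to 309.1 ± 20.6 CPM (adjusted p = 0.0254 by edgeR). *Slc7a1*, the carrier of cationic amino acids, also fell (adjusted p = 0.0230). *Slc3a2*, the heavy chain that pairs with *Slc7a5*, measured 304.1 ± 18.4 and 276.5 ± 31.9 CPM and did not pass the test (adjusted p = 0.436 by edgeR). Of the mitochondrial one-carbon enzymes, *Shmt2* fell from 347.3 ± 8.84 to 248.5 ± 27.4 CPM (adjusted p = 0.0260 by edgeR) and *Mthfd2* from 189.9 ± 4.89 to 142.5 ± 16.8 CPM (adjusted p = 0.0474). *Psat1* of serine synthesis measured 487.4 ± 27.0 and 367.0 ± 63.5 CPM (adjusted p = 0.0980 by edgeR, and 0.00240 with the block). *Gars*, the glycyl-tRNA synthetase, fell from 370.7 ± 4.73 to 292.6 ± 24.8 CPM (adjusted p = 0.0429 by edgeR). *Nars*, the asparaginyl-tRNA synthetase, measured 555.9 ± 19.4 and 456.9 ± 27.0 CPM (adjusted p = 0.0515 by edgeR, and 0.00958 with the block).

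Without DMSO sample 3, DMSO sample 4 or IOX5 sample 3, no gene of any kind was called by edgeR without the block, these genes, *Chac1* and *Trib3* included, while 1969, 1846 and 2111 genes had an unadjusted p under 0.05. The calls of *Slc7a5*, *Slc7a1* and *Shmt2* were also lost without DMSO sample 1, DMSO sample 2 or IOX5 sample 1, so they held in 2 of the 8 fits that left out a sample. Those of *Mthfd2*, *Gars*, *Gpx4* and *Ldha* held in 1 of the 8, without IOX5 sample 4. *Pdk1* and *Ankrd37* were called in 5 of the 8 and *Kdm3a* and *Pgk1* in 3, and *Trib3* was called without IOX5 sample 2 or 4 alone. In the blocked fits that each left out a replicate number, 403 to 1058 genes were called lower with *Chac1* and *Trib3* among them in each. These blocked fits were chosen after seeing the data. Since *Chac1* and *Trib3* were chosen with this comparison in view, nothing is read from their calls.

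The remaining lists had medians nearer to 0 or above it. Of 10 signalling and secreted targets 8 were above 0 (median 0.13), and the test with the block called *Ddit4* and *Gdf15* higher and *Herpud1* lower, genes that are named here after their values were seen. *Ddit4*, an inhibitor of mTORC1 that is also a target of HIF, had 51.3 ± 10.3 CPM with DMSO and 86.8 ± 19.4 with IOX5 (adjusted p = 0.0686 by edgeR, and 2.48e-05 with the block). *Gdf15*, a secreted stress cytokine, had 0.805 ± 0.493 and 2.69 ± 1.09 CPM (adjusted p = 0.0908 by edgeR, and 0.000858 with the block). In the same list *Cebpb*, a C/EBP partner of ATF4, measured 139.7 ± 38.6 and 141.3 ± 52.7 CPM (adjusted p = 0.983 by edgeR) and was called for the replicate number, as were *Atf5* and *Atf3* (adjusted p = 0.000456 by edgeR). *Ero1l*, the ER oxidase, measured 406.1 ± 36.7 and 466.5 ± 29.5 CPM (adjusted p = 0.204 by edgeR).

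Of 17 genes for eIF2, its exchange factor, its kinases with their regulators and its phosphatase, 14 were below 0 (median -0.11), none was called without the block and 6 were called lower with it. They include *Ppp1r15b*, the constitutive relative of *Ppp1r15a*, which measured 279.4 ± 20.2 CPM with DMSO and 225.7 ± 24.7 with IOX5 (log2 fold change -0.31, adjusted p = 0.105 by edgeR, and 0.00420 with the block). *Eif2s3x*, an eIF2 subunit, measured 215.5 ± 53.1 and 167.6 ± 39.1 CPM (adjusted p = 0.408 by edgeR, and 0.00271 with the block). The catalytic subunit *Ppp1ca*, which *Ppp1r15a* directs, measured 496.8 ± 10.8 and 511.9 ± 27.6 CPM (adjusted p = 0.715 by edgeR). Of 25 bZIP partners and relatives of *Atf4* 17 were above 0 (median 0.08), and the block gave 3 calls each way. Among these *Jund* measured 77.3 ± 6.15 and 91.5 ± 11.6 CPM (adjusted p = 0.212 by edgeR). Of 12 relatives of the 10 genes 7 were below 0 (median -0.08), none was called without the block and 4 were called lower with it.

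Of 22 ER chaperones and genes of the ATF6 and XBP1 branches 16 were below 0 (median -0.08), none was called without the block, and with it 1 was called higher and 3 lower. *Hspa5*, the ER chaperone BiP that reports unfolded proteins, measured 1798 ± 101.05 and 1595 ± 66.0 CPM (adjusted p = 0.158 by edgeR, and 0.0951 with the block). *Calr*, another ER chaperone, measured 2928 ± 193 and 3078 ± 382 CPM (adjusted p = 0.722 by edgeR). Of 17 genes of glutathione metabolism, the substrate pathway of *Chac1*, 14 were above 0 (median 0.20). *Gpx4*, the peroxidase that uses glutathione to reduce lipid peroxides, rose from 139.7 ± 7.34 to 182.5 ± 13.1 CPM (adjusted p = 0.0346 by edgeR), and with the block 5 genes were called higher and none lower. *Gpx1* measured 924.2 ± 78.9 and 1062 ± 124 CPM (adjusted p = 0.279 by edgeR, and 0.0456 with the block), and *Gsr*, the glutathione reductase, 544.8 ± 27.0 and 580.5 ± 84.96 CPM (adjusted p = 0.647 by edgeR).

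**Figure D5:**
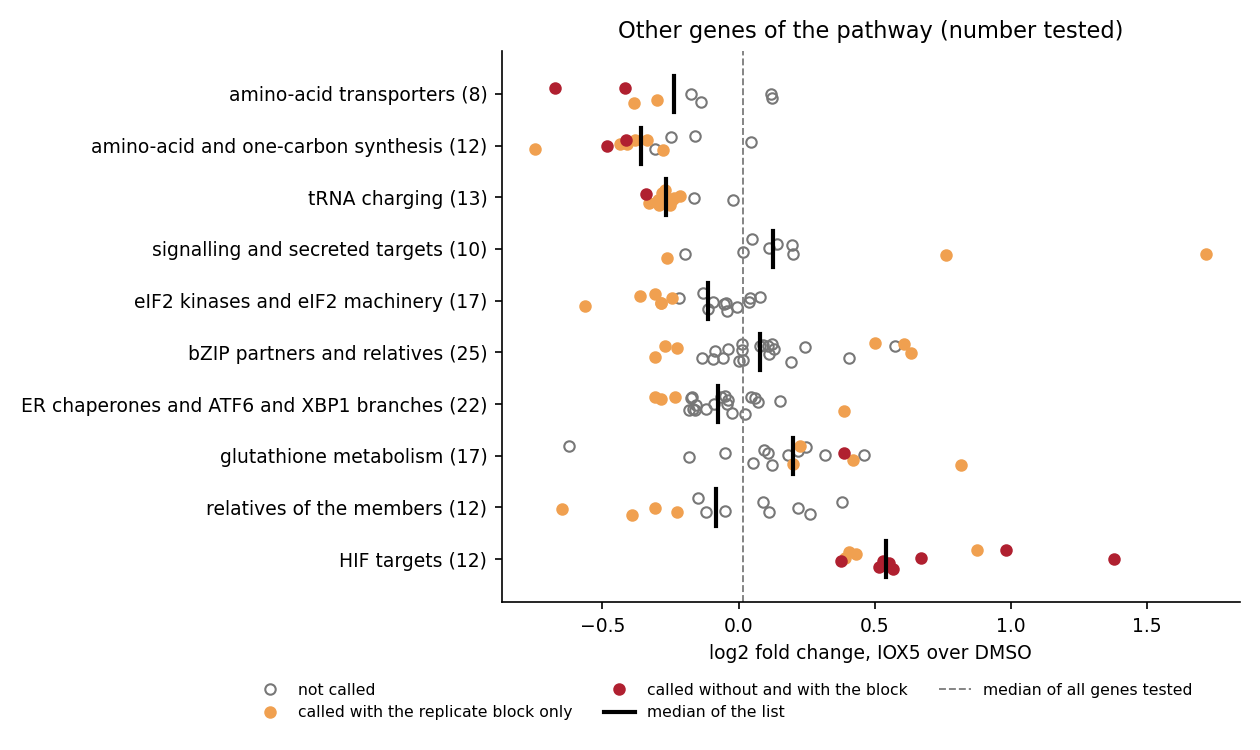
Log2 fold change of IOX5 over DMSO (horizontal axis) for the other genes of the response, each dot a gene, by list with the number tested. Red dots were called at an adjusted p under 0.05 (edgeR) without and with the block, orange dots with the block only, and open dots by neither. Black bars are list medians, and the dashed line is the median of all genes tested, 0.02. The medians of amino-acid transporters, of amino-acid and one-carbon synthesis and of tRNA charging lie between -0.36 and -0.24. That of glutathione metabolism lies at 0.20 and that of HIF targets at 0.54.

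The promoter motif was also counted in these lists, some of which were written as lists of ATF4 targets, so the counts are a description. TGATGNAA was found in 1 of 6 amino-acid transporters with a window, in 3 of 10 genes of amino-acid and one-carbon synthesis (*Pck2*, *Got1* and *Pycr1*), in 3 of 9 genes of tRNA charging (*Aars*, *Gars* and *Tars*), and in 2 of 9 signalling and secreted targets (*Fgf21* and *Herpud1*). In the other lists it was found in 1 of 13 genes of the eIF2 machinery (*Eif2s3x*), 1 of 13 of glutathione metabolism (*Slc7a11*, which is also the transporter with a match), 1 of 9 relatives of the 10 genes (*Gadd45g*), and none of 23 bZIP partners, 19 ER genes and 12 HIF targets, against 2.46% of all tested genes. The list counts take every listed gene with a window, also genes that were not tested, such as *Fgf21* with 0 reads. Of the 5 genes described here with the motif, *Chac1* and *Asns* had groups that did not overlap, and *Atf3*, *Nupr1* and *Vldlr* had groups that did. *Trib3* had such groups and held no match in its window.

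*Atf4* and *Atf5* are known for short reading frames ahead of their coding sequence that bring them under the control of eIF2, so the start codons upstream of the coding sequence were counted in 1 GENCODE M21 transcript of each gene. *Atf5* had 6, more than any other of the 10, and 2 of these opened frames that read into the coding sequence in another frame. *Atf4* had 3, of which 1 read into the coding sequence, and *Ppp1r15a* had 3. *Ddit3* and *Asns* had 2, *Atf3* and *Nupr1* had 1, and *Chac1*, *Trib3* and *Vldlr* had 0. Of 11223 tested genes with such a transcript, 49.8% had at least 1, 17.2% at least 3 and 5.02% at least 6. This is a property of the sequence, and translation was not measured.

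Markers of other cell types also differed between the groups and the replicate numbers. Without the block, *Vwf* of the megakaryocyte list was the single marker called by edgeR among all the lists of cell types. The counts that follow are from the test with the block, which called 11.2% of all genes higher. All 6 mast cell and basophil markers were above 0 (median log2 fold change 1.02) and were called higher with the block and for the replicate number, and their summed level ran from 86.3 to 446.3 CPM in DMSO samples and from 110.1 to 820.5 in IOX5 samples. All 4 tested megakaryocyte markers were called higher with the block (median 1.36, 26.0 to 71.3 and 89.2 to 147.6 CPM), with *Gp1bb* at 0. All 7 granulocyte markers were above 0 and 5 were called with the block (median 0.56, 529.7 to 1333 and 693.4 to 2080 CPM), and 2 of 5 tested macrophage markers (median 0.38, 148.4 to 208.0 and 225.5 to 499.3 CPM). Their sum was highest in sample 2 of each group for both granulocytes and macrophages, the samples in which *Atf5* and *Atf3* were highest. Of the erythroid markers 1 of 3 tested was called with the block (3.73 to 18.4 and 5.95 to 26.4 CPM), and of stroma and endothelium 1 of 2 tested, *Pecam1*, with *Col1a1* at 0.947 ± 0.285 CPM with DMSO and 0.770 ± 0.188 with IOX5 and *Col1a2* at 0 (83.8 to 163.6 and 131.6 to 218.5 CPM). Of 9 progenitor markers 5 were called higher with the block and none lower. The part of these cells in the levels of the 10 genes was not tested.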

How the data were processed

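RNA from 8 samples of *iMLL-AF9* cells, 4 with DMSO and 4 with IOX5, was examined. The authors selected poly(A) RNA, sequenced single-end directional libraries, trimmed reads with Cutadapt 1.18, mapped them to GRCm38 with HISAT2 2.2.1 and deposited raw counts per Ensembl gene from HTSeq 2.0.1, without normalization (versions per the submitters' processing notes). The strand setting and the annotation release given to the counting are not given in the sources used here. From the values, *Xist* had 105071 reads and its antisense partner *Tsix* 21.

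The summary lines at the end of each file, 20.6% to 22.6% of reads, entered neither library sizes nor tests. GENCODE M21 gave names for 54809 of the 54838 genes. In R 4.3.3 with edgeR 4.0.16, filterByExpr kept 12405 genes, TMM factors ran from 0.988 to 1.03, and IOX5 was compared with DMSO by the quasi-likelihood test without a block, with genes called at a Benjamini-Hochberg adjusted p under 0.05. The same model with the replicate number as a block was an alternative and gave the F test of the number. The common biological coefficient of variation was 0.202 without and 0.0794 with the block. Log2 CPM used a prior count of 2. Other alternatives were DESeq2 1.42.0, scaling by RLE or by upper quartiles, testing without the filter, and leaving out each sample. The blocked fits that left out a replicate number were chosen after seeing the data.

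Same-numbered samples deviated together from their group means, with correlations of 0.758, 0.744, 0.732 and 0.636 for numbers 1 to 4, so the numbers were taken to pair the samples, a pairing that comes from the data and the labels' numbers. Between different numbers the correlation reached 0.685 (DMSO 4 with IOX5 3) and 0.617 (DMSO 3 with IOX5 4), so numbers 3 and 4 are not clearly set apart as pairs.

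The members of the gene group and the gene lists were chosen with earlier results of these data known. Named genes were the 10 members, from each list up to 3 genes called with the smallest p and the 1 or 2 with the highest DMSO level per length, and the 5 genes most like *Chac1*. Genes named outside this rule are said to be so, and some that it names are not reported here. Promoter windows are those of RefSeq on GRCm38.p6, and all 10 symbols matched. The fits were first tested on simulated data.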

Additional observations from a re-analysis of the deposited data

Results flagged for a closer look

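Each group of 4 samples was examined for a sample whose gap to its nearest neighbour exceeded Dixon's critical share of the group's range, over 20 groups, of which chance alone would be expected to flag about 1 in 20. In *Atf4*, DMSO replicate 1 (495.9 CPM) lay below the other DMSO samples, with a gap of 0.921 of the range, and IOX5 replicate 4 (506.1 CPM) lay above the other IOX5 samples, with a gap of 0.902. In *Atf3*, IOX5 replicate 2 (14.3 CPM) lay above the others of its group (0.831), and DMSO replicate 2 was highest in its own group. In *Trib3*, DMSO replicate 3 (54.6 CPM) lay above the others of its group (0.857). Without these samples in turn the log2 fold change of *Atf4* was -0.22 to -0.31 over all samples left out, that of *Trib3* -0.58 to -0.47, and that of *Atf3* turned to -0.092 without IOX5 replicate 2. Why these samples differ was not tested.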

How the results depend on the processing

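The 10 stress genes were chosen with this comparison in view, so nothing is read from the counts of them called in this section. The main test (edgeR without the replicate block) called 96 genes higher and 155 lower, 2 of the 10 stress genes lower, and 5 other pathway genes lower and 1 higher. With the replicate block, whose pairing is given with the methods, it called 1394 higher and 1170 lower, 4 stress genes lower (*Chac1*, *Trib3*, *Asns* and *Atf4*), and 38 other pathway genes lower and 11 higher, and all 251 genes of the main test were among its calls. DESeq2 called 433 higher and 546 lower, the same 4 stress genes, and 25 and 5 pathway genes. RLE and upper-quartile factors each called 3 pathway genes lower. Without the filter 73 genes were lower, 3 of them of the pathway. Leaving out each sample gave 0 to 130 genes higher, 0 to 333 lower, 0 to 3 stress genes lower, and 0 to 16 pathway genes lower and 0 to 1 higher. There were 0 calls when DMSO replicate 3 or 4, or IOX5 replicate 3, was left out (1969, 1846 and 2111 genes at an unadjusted p under 0.05 by edgeR), and *Trib3* also lost its call when replicate 1 of either group or DMSO replicate 2 was left out.

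In the replicate block without number 1, 2, 3 or 4, 994, 1119, 642 and 1355 genes were higher and 650, 1016, 403 and 1058 lower, 3, 5, 2 and 4 stress genes were lower (*Nupr1* was added without number 2), and 32, 33, 15 and 36 pathway genes were lower and 11, 9, 8 and 11 higher. *Vldlr* was called higher (1 stress gene) without number 4. The number of genes called for the replicate number stayed within 1.5 times of 2790, from 2070 to 3750, with *Nupr1* added when no filter was used. All 170 fold changes of the stress genes under the alternatives stayed within the spread between replicates of their gene. Leaving out 1 of 4 samples, or another scaling, can hardly shift a mean by that much. This measure therefore says little of how stable the fold changes are. *Atf5*, *Atf3*, *Vldlr* and *Ddit3* changed sign in some alternatives. The cause of these changes was not tested. Depth limits the genes with few reads, such as *Vldlr* with 533 and *Atf3* with 688 reads in the 8 samples.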

Other observations

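The genes in this section were chosen after their values were seen. Values are given for factors of the C/EBP family, whose members can pair with ATF4, without a test of the difference between them. *Cebpa*, which drives granulocyte development, had 115.0 ± 33.3 CPM with DMSO and 162.6 ± 41.3 with IOX5 (log2 fold change 0.50, adjusted p = 0.299 by edgeR, and 0.000401 with the block, higher in 4 of 4 numbers). *Cebpd* had 33.0 ± 3.45 and 51.3 ± 18.4 CPM (adjusted p = 0.147 by edgeR, and 0.00225 with the block) and *Cebpe*, a factor of late granulocytes, 15.8 ± 5.21 and 24.1 ± 9.90 CPM (adjusted p = 0.333 by edgeR, and 0.00182 with the block). These 3 genes were also called for the replicate number, and 5 of 7 granulocyte markers were called higher with the block (median log2 fold change 0.56). The part of granulocytes in these values was not tested. *Cebpg*, a common partner of ATF4, had 61.2 ± 8.73 and 66.1 ± 6.57 CPM (adjusted p = 0.642 by edgeR, and 0.238 with the block).

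The mRNAs of the 4 eIF2 kinases, through which the response begins, did not pass the test in either fit. *Eif2ak1* had 82.4 ± 4.19 and 79.7 ± 4.62 CPM, *Eif2ak2* 100.7 ± 1.78 and 97.02 ± 7.44, *Eif2ak3* 44.6 ± 3.94 and 47.1 ± 5.95, and *Eif2ak4* 45.0 ± 4.50 and 44.8 ± 6.09 CPM, with adjusted p from 0.687 to 0.981 by edgeR and from 0.488 to 0.942 with the block. Kinase activity was not measured.

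In glutathione metabolism, the close relative *Chac2* of *Chac1* had 2.73 ± 0.530 and 3.18 ± 0.447 CPM (log2 fold change 0.22, adjusted p = 0.613 by edgeR), while *Gclm*, the modifier subunit of the enzyme that begins glutathione synthesis, had 195.8 ± 37.7 and 262.2 ± 38.7 CPM (log2 fold change 0.42, adjusted p = 0.174 by edgeR, and 0.000649 with the block, higher in 4 of 4 numbers). *Slc7a11*, the cystine carrier, had 150.3 ± 38.7 and 163.7 ± 38.3 CPM (adjusted p = 0.790 by edgeR). *Gadd45b*, a stress gene, had 23.5 ± 2.22 and 15.0 ± 2.66 CPM (log2 fold change -0.65, adjusted p = 0.0553 by edgeR, and 0.000629 with the block, lower in 4 of 4 numbers).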
